A study of Mus musculus with 11 samples.

Results

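The mouse counterparts of 8 genes whose mutations cause, or have been linked to, inherited Parkinson disease were followed through maps of open chromatin from embryonic midbrain dopaminergic (DA) neurons and hindbrain serotonergic (5-HT) neurons. The genes were Pink1, Park2, Fbxo7, Park7, Uchl1, Lrrk2, Vps35 and Atp13a2, taken from a list of disease genes by name and not by their values, and they are 8 of the 22202 protein-coding genes in the annotation. For each gene, every mapped region in the gene body and in 20 kb on either side was taken, which gave 73 of the 131942 regions of the series.

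The maps came from ATAC-seq, in which the Tn5 transposase cuts accessible DNA and a peak marks a stretch that was cut often. DA neurons were sorted for GFP from the ventral mesencephalon of TH-GFP embryos, whose GFP is driven by the promoter of Th, and 5-HT neurons were sorted for YFP from rhombomeres of Mash1-CRE x ROSA YFP embryos, which carry a Cre recombinase under Mash1 and a YFP reporter. All embryos were at embryonic day 14.5 and had Swiss wild-type mothers, and several embryos were pooled for each sort, which gave 3 DA and 2 5-HT libraries. By the paper's account, fewer cells were sorted for each 5-HT library than for any DA library. The cell type, the transgene, the tissue and the number of sorted cells changed together between the groups and cannot be told apart. The p-values measure only the spread between these pools.

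Each library had a score for every region, and a score of 0 meant that no peak was called there. The scale of the score was not given and the read depth was unknown. Peaks were called at 52861, 93055 and 94351 regions in DA 1, DA 2 and DA 3, and at 38772 and 22879 regions in 5-HT 1 and 5-HT 2. The 5-HT libraries thus held fewer peaks, and a larger share of them lay at promoters, 35.4% and 48.2% against 27.4%, 18.0% and 16.8% in DA 1 to DA 3.

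The labels were checked against promoter peaks of marker genes. All 7 DA markers had a promoter peak in each DA library and 4 of 7 had one in 5-HT 1 and 4 of 7 in 5-HT 2, with 3 of them (Ddc, Pitx3 and Nr4a2) in both. Of the 5-HT libraries, Slc6a3 had one only in 5-HT 1 and Slc18a2 only in 5-HT 2, and Th, the rate-limiting enzyme of dopamine synthesis, and Lmx1a, a transcription factor of DA precursors, had none in the 5-HT libraries. The scores of the 7 DA markers summed to 52.3, 54.9 and 46.7 in DA 1 to DA 3 and to 20.6 and 12.8 in 5-HT 1 and 5-HT 2. The 5-HT markers did not separate the groups in the same way. Peaks lay at 3, 4 and 3 of the 5 markers in DA 1 to DA 3 and at 4 and 2 of 5 in 5-HT 1 and 5-HT 2, and their summed scores were 21.7, 21.8 and 19.5 against 20.3 and 11.1. Tph2, the neuronal enzyme of serotonin synthesis, and Gata3 had a peak in all 5 libraries, the serotonin transporter gene Slc6a4 had one in every DA library but no 5-HT library, and the 5-HT factor Fev had one in 5-HT 1 alone. Among markers of other cells, the GABA genes Gad1 and Gad2 had a promoter peak in all 5 libraries and the third of that list, Slc32a1, in all but 5-HT 2, whereas the microglial genes Aif1, Csf1r and Cx3cr1, the vascular genes Pecam1 and Cspg4, the glutamate transporter gene Slc17a7 and the noradrenergic gene Dbh were at 0 throughout. Other markers were not. A further glutamate transporter gene, Slc17a6, scored 9.97, 12.9 and 12.8 in DA 1 to DA 3, 3.65 in 5-HT 1 and 0 in 5-HT 2, and exceeded Th in each DA library, and the noradrenaline transporter gene Slc6a2 scored 3.70 in DA 2 alone. The microglial gene Tmem119 and the pericyte gene Pdgfrb had a weak promoter peak in DA 2 and DA 3, and the endothelial gene Cldn5 had one in all libraries but 5-HT 2. Of the 4 astrocyte and radial glia markers, 3, 4 and 4 had a promoter peak in DA 1 to DA 3 and 3 and 1 in the 5-HT libraries. The part of other cells in the values below was not tested.

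Parkinson disease follows the loss of midbrain DA neurons, and the genes behind its inherited forms converge on a few housekeeping tasks. The kinase encoded by Pink1 accumulates on damaged mitochondria and activates the ubiquitin ligase encoded by Park2, so that the organelle is marked for removal by autophagy (mitophagy), while other genes act in ubiquitin turnover, in the response to oxidative stress, in endosomal sorting and in the lysosome. Such genes are active in most cells, and the question asked of the maps was where their promoters and the surrounding distal regions were open in either class of neuron.

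All 8 genes had a promoter peak in all 5 libraries, against 48.6% of the protein-coding genes. A promoter was taken as 1 kb upstream to 100 bp downstream of any annotated transcription start site (TSS), and 10 regions met this for the 8 genes, 2 each for Park2 and Park7. Each of the 10 regions had a peak in every library. In the full peak lists, presence therefore did not separate DA from 5-HT neurons at these promoters. When every list was cut by score to 22879 peaks, as many as 5-HT 2 had, the promoters of Lrrk2 and Pink1 kept a peak in both 5-HT libraries and had none in the 3 DA libraries, while the other 6 genes kept theirs in all 5. Of the 10795 genes with a promoter peak in all 5 full lists, 4.47% and 78.8% did so. The cut removed no peak of 5-HT 2, and it left none of these genes with a promoter peak in the DA libraries alone. With pooled cells, fewer cells with an open promoter and less opening per cell cannot be told apart.

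To compare scores between libraries with unequal numbers of peaks, each promoter was ranked within its library. The first rank was the percent of all peaks of the library that scored the same or lower. On this scale the 3 DA libraries lay above both 5-HT libraries for 6 of the 8 genes, all but Lrrk2 and Fbxo7, beside 57.1% of the 10795 genes with a promoter peak in all 5 libraries. Since most genes separated in this direction, and the DA libraries held more peaks outside promoters, a second rank was added after the data were seen. It is the promoter percentile, the percent of those 10795 promoters that scored the same or lower in the library. The DA libraries were then above both 5-HT libraries for 1 of the 8 genes, Vps35, beside 16.0% of the 10795 genes, and below both for 3 of the 8, Lrrk2, Uchl1 and Fbxo7, beside 15.1%. The values below are deposited scores and promoter percentiles, with p from two-sided exact permutation tests over the 5 libraries, for which 0.1 is the smallest value that 3 against 2 can give.

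Among the genes of mitophagy, Pink1 had one of the weakest promoters of the set. Its region, chr4:137881428-137882340 on mm9, spans the TSS and scored 4.85, 6.38 and 4.10 in DA 1 to DA 3 and 4.18 and 3.05 in 5-HT 1 and 5-HT 2. The promoter percentiles were 6.27, 10.5 and 1.70 in DA 1 to DA 3 and 7.23 and 5.62 in the 5-HT libraries, so that the groups overlapped and every library placed Pink1 near the bottom of the open promoters. Against all peaks, its percentile ranged by 58.5 points over the 5 libraries, the widest range of the 8 genes, from 14.6 in 5-HT 2 to 73.1 in DA 2, and the DA libraries were on top by 28.8 points between the means (exact permutation p = 0.2). The 3 genes whose 5 percentiles among all peaks were nearest to those of Pink1, by Euclidean distance in percentile points, were Cltb (7.26), Igf2bp1 (7.60) and Gm9804 (10.6).

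Park2, which encodes the ubiquitin ligase parkin, had a strong promoter at its first TSS, chr17:11032507-11034169. The scores there were 9.53, 12.8 and 10.6 in DA 1 to DA 3 and 7.0 and 4.37 in 5-HT 1 and 5-HT 2. The promoter percentiles of 60.8, 64.5 and 62.1 in the DA libraries lay between the 66.3 of 5-HT 1 and the 49.6 of 5-HT 2 (difference of means 4.52, exact permutation p = 0.7). Among all peaks, the planned scale, the 3 DA libraries lay above both 5-HT libraries by 14.5 points between the means (exact permutation p = 0.1). A second promoter inside the gene, chr17:11259885-11261111, scored 4.68, 5.67 and 4.50 in DA 1 to DA 3 and 3.78 and 3.35 in the 5-HT libraries. It was the weaker of the pair in all 5 libraries.

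Fbxo7 encodes an F-box protein, the part of a ubiquitin ligase complex that picks the substrate, and its product works with those of Pink1 and Park2. Its promoter, chr10:85484293-85485423, scored 8.04, 9.29 and 8.70 in DA 1 to DA 3 and 7.07 and 4.50 in the 5-HT libraries. The promoter percentiles were 44.0, 35.2 and 45.0 in the DA libraries and 67.3 and 53.1 in the 5-HT libraries, a difference of means of -18.8 points with both 5-HT libraries on top (exact permutation p = 0.1). The rank among all peaks gave a difference in the other direction, 6.49 points (exact permutation p = 0.4), so the direction for Fbxo7 depended on the scale.

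Park7 encodes DJ-1, which protects cells from oxidative stress, and Uchl1 encodes an abundant neuronal deubiquitinating enzyme. Park7 had a promoter region at its downstream cluster of TSSs, chr4:150283566-150284366, with scores of 9.95, 13.3 and 8.94 in DA 1 to DA 3 and 5.58 and 4.78 in the 5-HT libraries. Another lay at the most upstream TSS, chr4:150288006-150288959, with 9.44, 14.4 and 7.78 in DA 1 to DA 3 and 4.40 and 3.22 in the 5-HT libraries. The downstream region was the stronger one except in DA 2. The promoter percentiles of Park7, taken from the stronger region, were 64.4, 74.7 and 47.2 in DA 1 to DA 3 and 38.4 and 59.4 in the 5-HT libraries, and the groups overlapped, whereas among all peaks the DA libraries were on top by 18.0 points (exact permutation p = 0.1). For Uchl1 the promoter region chr5:67066249-67068604 was the widest of the set at 2356 bp, and it scored 10.3, 12.6 and 10.4 in DA 1 to DA 3 and 7.71 and 5.21 in the 5-HT libraries. Its promoter percentiles were 67.2, 62.8 and 60.9 against 75.8 and 67.7, and Uchl1 held first place among the 8 genes in both 5-HT libraries. The difference of means was -8.15 points (exact permutation p = 0.2), and it was 6.59 points in favour of the DA libraries (exact permutation p = 0.1) when ranked among all peaks.

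Lrrk2 encodes a large kinase that phosphorylates Rab GTPases, and its promoter stood apart from those of the ubiquitin genes by its low scores. The region chr15:91503226-91503926 scored 5.27, 5.42 and 5.08 in DA 1 to DA 3 and 5.13 and 3.47 in 5-HT 1 and 5-HT 2. Its promoter percentiles were 10.1, 4.80 and 7.39 in the DA libraries against 27.7 in 5-HT 1 and 20.6 in 5-HT 2. It thus ranked higher in each 5-HT library than in any DA library, by 16.7 points between the means (exact permutation p = 0.1), whereas among all peaks the groups overlapped and the DA mean was the higher by 8.75 points (exact permutation p = 0.6).

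Vps35 encodes the core subunit of retromer, the complex that returns cargo from endosomes. Its promoter, chr8:87822561-87823897, scored 10.7, 13.7 and 12.2 in DA 1 to DA 3 and 6.15 and 4.42 in the 5-HT libraries. The promoter percentiles were 70.6, 70.8 and 73.5 in the DA libraries and 50.5 and 50.9 in the 5-HT libraries. Vps35 was the only one of the 8 genes whose DA libraries lay above both 5-HT libraries on both scales, by 20.9 points among shared promoters and by 20.0 points among all peaks (exact permutation p = 0.1 for each). Atp13a2 encodes a lysosomal ATPase that exports polyamines, and its promoter, chr4:140542129-140543174, scored 6.71, 7.85 and 6.61 in DA 1 to DA 3 and 4.81 and 4.41 in the 5-HT libraries. The promoter percentiles were 27.0, 21.6 and 22.1 in the DA libraries but 20.0 in 5-HT 1 and 50.7 in 5-HT 2, so that the 2 5-HT libraries disagreed by more than the 3 DA libraries did. The difference of means was -11.7 points (exact permutation p = 0.6), and among all peaks it was 13.3 points with the DA libraries on top (exact permutation p = 0.2).

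The order of the 8 promoters was similar in the DA libraries and less so in the 5-HT libraries. Vps35, Uchl1, Park7 and Park2 took the first 4 places in all 3 DA libraries, followed by Fbxo7 and Atp13a2, and Lrrk2 and Pink1 were the last 2. In 5-HT 1 the order was Uchl1, Fbxo7, Park2, Vps35, Park7, Lrrk2, Atp13a2 and Pink1. In 5-HT 2, where Park7 to Park2 lay within 59.4 to 49.6, it was Uchl1, Park7, Fbxo7, Vps35, Atp13a2, Park2, Lrrk2 and Pink1. Pink1 was last in 4 of the 5 libraries, and in DA 2 it changed places with Lrrk2.

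**Figure D1:**
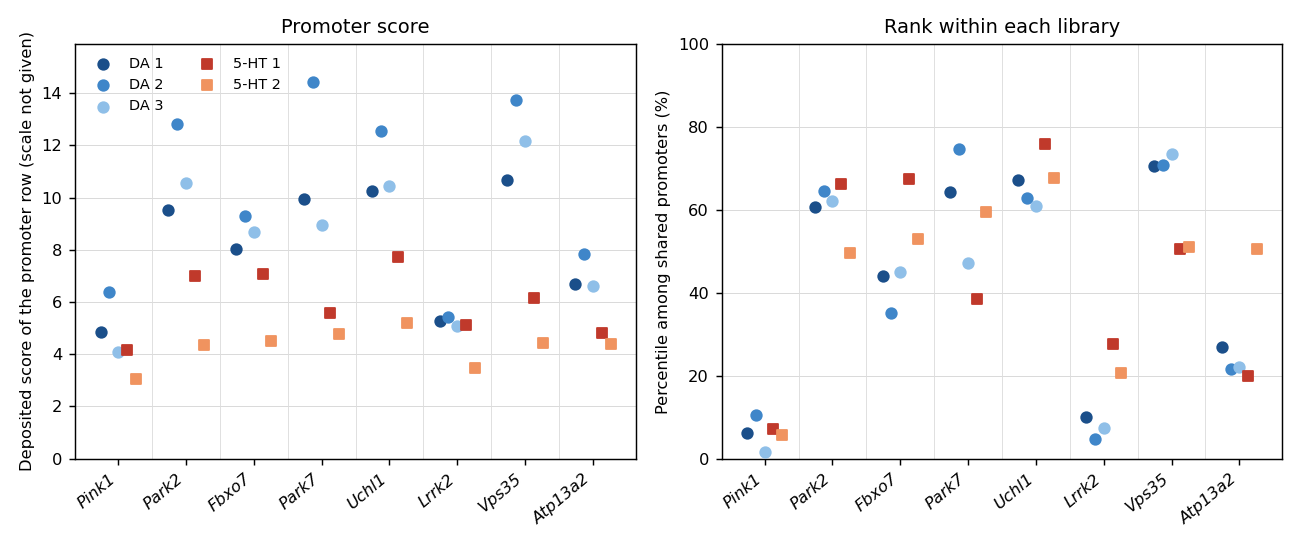
Promoter values of the 8 genes in each library, with circles for the 3 DA and squares for the 2 5-HT libraries, as the deposited score on the left (scale not given) and as the percentile among promoters with a peak in all 5 libraries on the right (%). The scores on the left have no known common scale between libraries. On the right only Vps35 has all DA points (70.6 to 73.5) above both 5-HT points (50.5 and 50.9).

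Several of these promoters serve a neighbour as well, so their score cannot be given to one gene alone. The TSS of Vps35 lies 119 bp from that of Orc6, which is read in the opposite direction. The upstream TSS of Park7 lies 125 bp from that of Tnfrsf9 on the other strand. In the region at the Uchl1 promoter, the noncoding gene Gm16832 starts 376 bp inside Uchl1 and runs back across it. The promoters of Lrrk2, Pink1, Atp13a2 and Fbxo7 were shared with no other annotated gene.

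The promoter sequences were read from the NCBIM37 (mm9) genome. In the 300 bases from 250 before to 50 after the TSS, GC content ran from 50.7% in Uchl1 to 68.3% in Fbxo7 with a median of 63.3% over the 8 genes, beside 55.7% over 22190 coding promoters and 61.3% over the 10762 of these with a peak in all 5 libraries. The median ratio of observed to expected CpG was 0.804, beside 0.564 and 0.787. The genes thus had GC-rich promoters like other promoters open in every library, with Uchl1 the lowest in both GC and CpG (0.470). Letters of 8 motifs were searched on both strands in this window. The SP letters GGGCGG were found in 6 of 8 promoters, all but Uchl1 and Fbxo7, beside 45.1% of all coding promoters and 66.6% of those open in all 5 libraries. The CCAAT box, CCAAT, was found in Pink1 and Vps35, beside 38.0% of all coding promoters and 40.4% of those open in all 5 libraries. The other 6 were found in none of the 8, namely NRF1 (GCGCATGCG, 2.19% of all coding promoters and 3.86% of those open in all 5 libraries), ETS (CCGGAAG, 11.2% and 18.1%), YY1 (AAGATGG, 6.71% and 7.05%), CRE (TGACGTCA, 2.41% and 3.74%), the lysosomal CLEAR E-box (TCACGTGA, 1.12% and 1.78%) and the TATA box (TATAAA, 13.2% and 6.14%). No match says only that these letters are not in the window.

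The 100 bases before the TSS are shown for Vps35, Lrrk2, Fbxo7 and Uchl1, and for Park2 and Pink1, the pair at the centre of mitophagy. On the promoter percentile, added after the data were seen, the DA libraries were on top for Vps35 and the 5-HT libraries for Lrrk2, Fbxo7 and Uchl1. Among all peaks, the planned scale, the DA mean was the higher for each of these genes, and all DA libraries were on top for Vps35 and Uchl1. The stretches are written 5′ to 3′ on the strand of the gene, with SP and CCAAT letters in capitals. The positions are chr8:87823413-87823512 (minus strand) for Vps35, chr15:91503506-91503605 (plus) for Lrrk2, chr10:85484617-85484716 (plus) for Fbxo7, chr5:67067260-67067359 (plus) for Uchl1, chr17:11033158-11033257 (plus) for Park2 and chr4:137882223-137882322 (minus) for Pink1. Each lies directly upstream of the first exon. The Uchl1 stretch overlaps an exon of the noncoding Gm16832.
Vps35: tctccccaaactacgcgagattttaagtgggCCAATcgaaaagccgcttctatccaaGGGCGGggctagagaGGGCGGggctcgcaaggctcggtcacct
Lrrk2: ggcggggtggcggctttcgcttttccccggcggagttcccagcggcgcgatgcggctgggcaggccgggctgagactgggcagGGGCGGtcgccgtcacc
Fbxo7: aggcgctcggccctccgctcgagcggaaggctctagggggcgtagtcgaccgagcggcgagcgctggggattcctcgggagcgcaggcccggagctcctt
Uchl1: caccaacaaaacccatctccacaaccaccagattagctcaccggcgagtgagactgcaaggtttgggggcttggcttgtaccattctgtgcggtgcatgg
Park2: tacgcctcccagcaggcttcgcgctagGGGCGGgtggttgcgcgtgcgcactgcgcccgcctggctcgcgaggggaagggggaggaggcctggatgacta
Pink1: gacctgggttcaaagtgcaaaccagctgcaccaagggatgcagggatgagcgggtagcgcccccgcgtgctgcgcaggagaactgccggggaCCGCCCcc
The Vps35 stretch holds GGGCGG at a pair of places beside a CCAAT box, and those of Lrrk2, Park2 and Pink1 hold GGGCGG once, in Pink1 on the other strand. The stretches of Fbxo7 and Uchl1 hold none of the 8 motifs.

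Outside promoters, 61 of the 73 regions were distal, that is, they overlapped no promoter of any annotated gene, and 2 were promoters of neighbours, Ddost in the window of Pink1 and Mfap2 in that of Atp13a2. Of the 61 distal regions, 44 lay inside the gene bodies. Park2 held 38, Pink1 and Uchl1 6 each, Lrrk2, Atp13a2 and Fbxo7 3 each, and Park7 and Vps35 1 each. Per 100 kb of window this was 11.3 for Pink1 and 11.7 for Uchl1, at the 93.9th and 94.5th percentile of the coding genes, beside 3.01 for Park2, 1.64 for Lrrk2 and 1.26 for Vps35, and the median over coding genes was 3.43. Without DA 2, an alternative added after the data were seen, the values were 3.78 for Pink1 (63.7th percentile), 7.83 for Uchl1 (90.4th), 1.90 for Park2 and 0 for Vps35, with a median of 2.41. The high density at Pink1 thus rested on that library, since 4 of its 6 regions had a peak in DA 2 alone. The large number at Park2 came with a gene length of 1221 kb. With all libraries, its density stood at the 35.7th percentile among 56 windows over 1 Mb.

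In contrast to the promoters, none of the 61 distal regions had a peak in all 5 libraries, beside 5.55% of the 114058 distal regions of the genome. The DA-only state, with a peak in each DA library but no 5-HT library, was found at 12 of the 61 (19.7%), 8 of them in Park2 and 1 each at Pink1, Uchl1, Atp13a2 and Fbxo7, beside 14.6% of all distal regions and 15.4% of those in the windows of coding genes. The reverse, a peak in both 5-HT libraries and no DA library, was found at 1 of the 61, near Fbxo7, beside 0.434%. Another 5 (8.20%) were open in all DA libraries plus 1 of the 5-HT libraries, 12 (19.7%) in DA 2 and DA 3 only, and 28 (45.9%) in a single library, beside 7.63%, 12.9% and 49.6% of all distal regions. These counts moved with the libraries used. Limited to the 22879 highest-scoring peaks of each library, 1 of the 61 remained DA-only, beside 2.33% of all distal regions; without DA 1, 24 of the 61 were DA-only, beside 27.4%. Without 5-HT 2, 4 of the 61 had a peak in all 4 remaining libraries, and without 5-HT 1 there was 1, beside 12.2% and 6.56% of all distal regions.

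The number of distal peaks per library was 19, 54 and 31 in DA 1 to DA 3 and 8 and 4 in 5-HT 1 and 5-HT 2. The groups did not overlap, and the means differed by 28.7 (exact permutation p = 0.2, with 0.1 the smallest possible). Over the whole genome the numbers of distal peaks were 38400, 76326 and 78481 against 25046 and 11855, and the groups did not overlap there either. At 22879 peaks per library the numbers were 5, 7 and 5 against 3 and 4 (exact permutation p = 0.1). Per 10000 peaks of the library the values were 3.59, 5.80 and 3.29 in DA 1 to DA 3 and 2.06 and 1.75 in the 5-HT libraries (exact permutation p = 0.2). Without Park2 they were 1.32, 1.93 and 1.17 against 0.774 and 1.31, and the groups overlapped. Per 10000 distal peaks, a measure added after the data were seen, all windows gave 4.95, 7.07 and 3.95 against 3.19 and 3.37 (exact permutation p = 0.2). DA 2 stood out, with a peak at 88.5% of the 61 distal regions beside 66.9% of all distal regions, whereas DA 3, which had a similar number of peaks in the genome, covered 50.8% beside 68.8%. Regions seen in DA 2 alone were 22 of the 61 (36.1%), beside 19.1% of all distal regions. Why DA 2 covered these windows more was not tested.

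At Park2, the distal regions ran along the whole gene on chromosome 17. The 8 DA-only regions were all intronic, and 3 of them lay close to the TSS of the internal promoter, at distances of 9487, 19797 and 20897 bp. The DA-only region with the highest score in its lowest DA library was chr17:11857333-11858084, 752 bp wide and 180368 bp from the nearest coding TSS, which scored 5.22, 6.53 and 5.77 in DA 1 to DA 3 and 0 in both 5-HT libraries. Of the 16631 DA-only distal regions of the genome, 3702 scored as high or higher in their lowest library, so this region was above the middle but not among the strongest. The distal region with the highest scores in Park2, chr17:12232179-12232404, was shared with a 5-HT library and was singled out after the values were seen. It scored 6.77, 8.25 and 7.82 in DA 1 to DA 3, 6.96 in 5-HT 1 and 0 in 5-HT 2. Of the 38 distal regions of Park2, 36 had a peak in DA 2, 20 in DA 3, 12 in DA 1, 5 in 5-HT 1 and 1 in 5-HT 2.

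**Figure D2:**
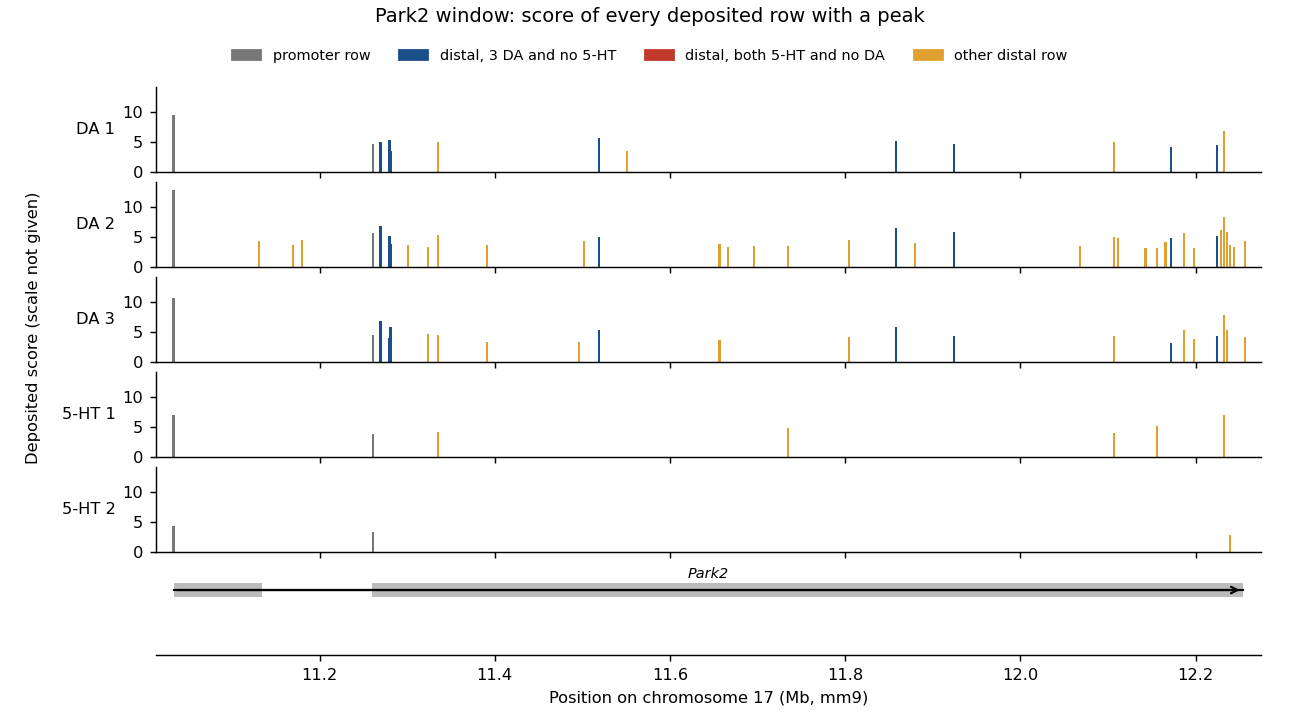
Deposited score (scale not given) of every region with a peak in the Park2 window on chromosome 17 (Mb, mm9), a lane for each library, with the 2 annotated records of Park2 as grey boxes below. Promoters, in grey, are present in every lane, the 8 DA-only regions, in blue, are spread over the introns, and most other distal regions, in yellow, appear in DA 2.

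At Fbxo7, the distal regions lay not in the gene but beyond its 3′ end, inside Syn3, a synapsin gene that runs in the opposite direction. The DA-only region chr10:85527556-85528050, 12938 bp past the end of Fbxo7 and 1785 bp from a TSS of Syn3, scored 9.36, 10.2 and 9.79 in DA 1 to DA 3 and 0 in both 5-HT libraries. It scored above the Fbxo7 promoter in all 3 DA libraries, and 109 of the 16631 DA-only distal regions of the genome, itself included, scored as high or higher in their lowest library. It was also the region that remained DA-only when each library was limited to 22879 peaks. Further along Syn3, chr10:85531936-85532369 was the 5-HT-only region, with scores of 3.63 and 3.21 in 5-HT 1 and 5-HT 2 and 0 in the 3 DA libraries. These scores were weak, and 281 of the 495 such regions of the genome scored as high or higher in their lowest library; a separate narrow region next to it, chr10:85531672-85531832, had a peak in DA 3 alone with a score of 3.09. Whether either region acts on Fbxo7 or on Syn3 was not tested.

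**Figure D3:**
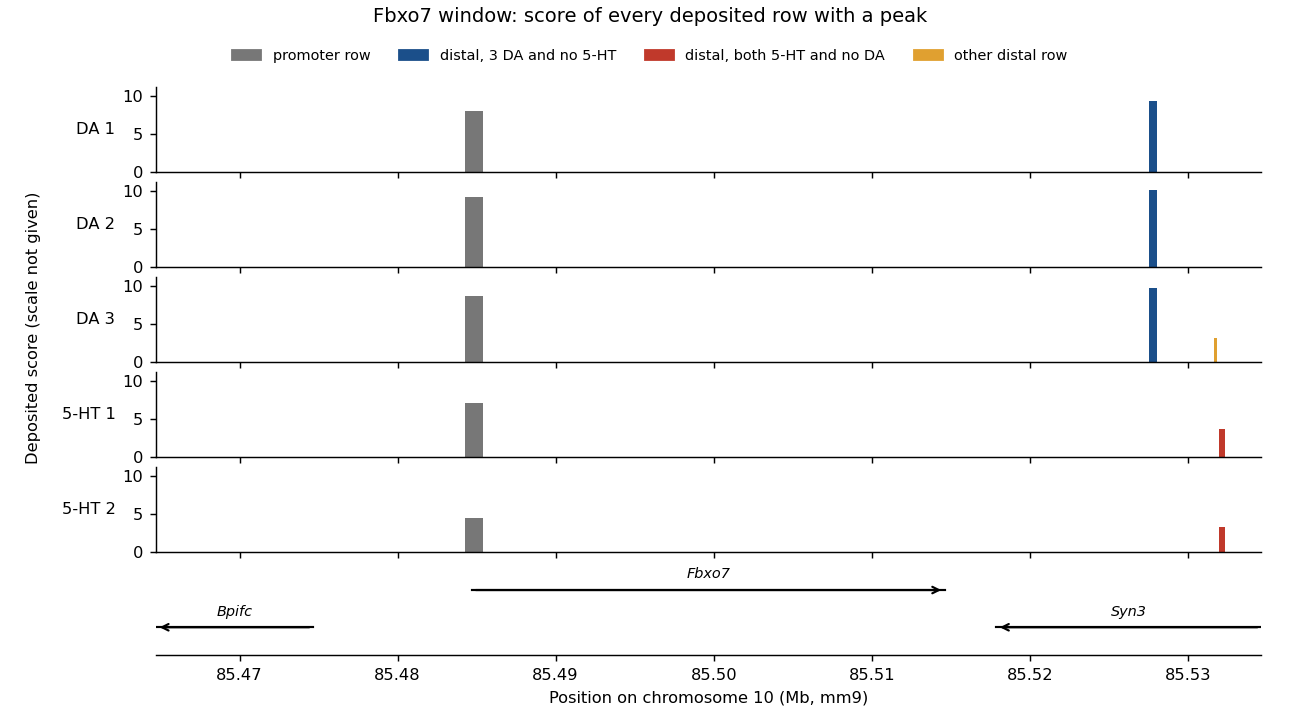
Deposited score (scale not given) of every region with a peak in the Fbxo7 window on chromosome 10 (Mb, mm9), a lane for each library, with gene bodies and their direction below. The DA-only region in Syn3, in blue, scores 9.36 to 10.2 in the DA lanes, and the 5-HT-only region, in red, scores 3.63 and 3.21.

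Around the other genes there were 1 to 6 distal regions each. Upstream of Uchl1, 15911 bp from the gene, chr5:67050963-67051449 was DA-only with scores of 6.16, 4.33 and 4.21 in DA 1 to DA 3. In an intron of the gene, the 1443 bp region chr5:67069287-67070729 scored 7.21, 6.76 and 5.50 in DA 1 to DA 3, 0 in 5-HT 1 and 3.30 in 5-HT 2. Pink1 had a DA-only region 4049 bp upstream, chr4:137886271-137886680, with scores of 4.93, 5.67 and 3.48 in DA 1 to DA 3. That of Atp13a2, chr4:140567743-140568213, lay past the gene inside its neighbour Mfap2 and scored 3.78, 5.58 and 3.67. These 3 regions were at the 53.2nd, 18.4th and 29.4th percentile of the DA-only distal regions by their lowest DA score, in the order Uchl1, Pink1 and Atp13a2. Lrrk2, Park7 and Vps35 had no DA-only region. The distal region of Park7, in an intron at chr4:150272822-150273089, scored 9.22 in DA 2 and 8.0 in DA 3 and was at 0 in DA 1 and both 5-HT libraries.

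The letters of 4 motifs of factors at work in midbrain DA neurons or their precursors were searched on both strands of the distal regions. NBRE letters, AAGGTCA, the element of Nr4a2 and its relatives, were in 4 of the 61 distal regions, beside 8.53% of all distal regions. The homeobox letters TAATTA were in 8 (12.8% of all), the PITX and OTX letters GGATTA, which share ATTA with the former, in 10 (14.2%) and the FOX letters TGTTTAC in 3 (7.81%). The member regions were shorter, with a median of 237 bp against 308 bp, and these shares were not adjusted for length. Of the 12 DA-only regions, 1 held NBRE letters, 4 TAATTA, 5 GGATTA and 1 TGTTTAC, beside 15.4%, 21.2%, 24.1% and 13.4% of the 16631 DA-only distal regions of the genome. The 1 with NBRE letters was the region near Fbxo7.

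The central 300 bases are shown, on the plus strand, for the DA-only region near Fbxo7, which was chosen after its values were seen because it was the strongest. They are chr10:85527653-85527952 on mm9, which lies inside Syn3 and overlaps an annotated exon, and the capitals mark AAGGTCA on the other strand.
Fbxo7 distal region: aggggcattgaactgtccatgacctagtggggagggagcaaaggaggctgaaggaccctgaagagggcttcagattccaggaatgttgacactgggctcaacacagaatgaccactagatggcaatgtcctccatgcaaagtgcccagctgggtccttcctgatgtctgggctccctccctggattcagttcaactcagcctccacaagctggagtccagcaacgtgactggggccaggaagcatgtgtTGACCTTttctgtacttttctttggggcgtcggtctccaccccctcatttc
The whole region held AAGGTCA at 2 places.

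The partners of the 8 genes were described from lists of their pathways. A promoter peak in all 5 libraries was found at 8 of 9 retromer and sorting nexin genes, 11 of 14 mitophagy genes, 8 of 9 Rab substrates and partners of Lrrk2 and 7 of 7 ubiquitin and SCF genes, beside the 48.6% of coding genes given above. Rhot2 and Calcoco2 of the mitophagy list had no promoter peak in any library, and the retromer subunit gene Vps29, the mitochondrial protease gene Parl and Lrrk1, the paralogue of Lrrk2, lacked one in 5-HT 2 only. On the promoter percentile, the DA libraries lay above both 5-HT libraries for 4 and below both for 1 of the 8 retromer genes with a peak in all 5 libraries, beside the 16.0% and 15.1% given above. Those above were Vps26a, Vps26b, Snx2 and Snx3, and the one below was Snx1. Vps26a, which binds Vps35 in the retromer core, had promoter percentiles of 68.0, 56.1 and 46.5 in DA 1 to DA 3 and 17.8 and 28.5 in the 5-HT libraries. Vps26b had 58.2, 62.9 and 64.0 against 56.3 and 42.0. The mitophagy list showed 1 above and 0 below, the Rab and Lrrk2 partners 2 and 2, and the ubiquitin and SCF genes 0 and 1.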

How the data were processed

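ATAC-seq peaks were analysed for 3 libraries of DA neurons and 2 of 5-HT neurons. The upstream steps of the authors were trimming (Trimmomatic), quality control (FastQC), alignment to mm9 (Bowtie2), removal of duplicates (Picard), peak calling in each library (MACS2), merging of peaks under 100 bp apart (BEDOPS) and annotation (HOMER); versions and the calling threshold are not given in the sources used here. The files deposited by the authors list 131942 regions, identical in all 5 libraries, with a score whose scale is not named and that is 0 without a peak. It was used for presence and for ranks within a library. Raw scores are printed for each library, summed over marker lists, and compared between libraries in choosing regions by their lowest DA score and in an alternative; these uses assume a shared scale, which is not known. One misspelled chromosome name was read as chromosome Y.

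Regions were placed on the GENCODE vM1 annotation by an overlap of at least 1 bp. The 2 annotated records of Park2 were joined to a single gene body. A gene with several promoter regions took its highest score. Group means were compared by exact permutation over the 10 divisions of the 5 libraries. The members, the pathway, marker and motif lists and the tests were chosen with earlier results of these data known. Distal regions were named by the highest lowest-DA score among the DA-only regions of each gene, and as every 5-HT-only region; the planned naming of regions open in all 5 libraries found none. Genes like Pink1 were named as the 3 nearest for the gene with the widest range of percentiles. The TSS used for sequences was the most upstream coding TSS at the highest-scoring promoter region.

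Alternatives changed the promoter, the TSSs, the overlap rule, the number and threshold of peaks, the window, merging, the scale and the libraries; those on Park2, the distal denominator, the density without a library and the promoter percentile were added after the data were seen. Computations used Python 3.11.15, NumPy 2.4.6, pandas 2.3.3 and matplotlib 3.10.9 and were tested on simulated data. RNA-seq was not analysed here. Some results on neighbouring and related genes and on a distal sequence are not reported here.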

Additional observations from a re-analysis of the deposited data

How the results depend on the processing

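The promoter peaks of the 8 genes in all 5 libraries held for 8 genes without each library in turn. Of the 8, 6 did so when regions were assigned by their centre (not Pink1 and Vps35, whose regions reach downstream of the TSS), 6 at 22879 peaks per library (Lrrk2 and Pink1 kept a peak in both 5-HT libraries and lost it in the 3 DA libraries) and 7 without the lowest-scoring 25% of peaks (not Pink1). Of the 10795 genes with a promoter peak in all 5 full lists, 78.8% kept it at 22879 peaks per library. Without the lowest-scoring 25% of peaks, 87.3% kept it. The share by centre was not computed. The 0 distal regions with a peak in all 5 libraries became 2 when assigned by centre, 2 in windows of 50 kb, and 0 to 4 without a library. Those by centre were the Pink1 promoter and the internal Park2 promoter, relabelled as distal. Their centres lie 271 and 507 bp from the nearest coding TSS, inside the genes. The 12 DA-only regions (19.7% of 61, beside 14.6% of all distal regions) became 1 at 22879 peaks per library (1.64% beside 2.33%). Without Park2 they were 4 of 23 (17.4%). Without a library they were 12 to 24 (19.7% to 39.3%), beside 15.6% to 27.4% of all distal regions. The single 5-HT-only region became 0 at 22879 peaks per library, 0 without the lowest-scoring 25% of peaks and 0 in windows of 10 kb, and 1 to 2 without a library. Distal regions per 100 kb ran from 3.78 to 11.3 for Pink1, 7.83 to 11.7 for Uchl1, 1.90 to 3.01 for Park2 and 0 to 1.26 for Vps35 without a library, lowest without DA 2. The difference in distal peaks stayed above 0 under 15 of 15 alternatives (2.17 to 36.5), and per 10000 peaks under 16 of 16 (0.432 to 2.82). In the full lists every DA library held more distal peaks over the genome than either 5-HT library (38400 or more against 25046 or fewer). The sign of the raw difference is therefore not particular to these windows. No p was below 0.1, which these designs cannot pass. The 6 genes with the DA libraries on top became 1 on the promoter percentile, where the difference turned to -16.7 for Lrrk2, -0.281 for Pink1, -8.15 for Uchl1, -11.7 for Atp13a2 and -18.8 for Fbxo7. Without a library they were 6 to 8, and the differences among all peaks ran from -3.67 to 21.2 for Lrrk2 and from -0.822 to 13.8 for Fbxo7, below 0 without 5-HT 2.

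With the replicate block, the mean difference within numbers 1 and 2 was 30.5 distal peaks and 2.79 per 10000 peaks, and 6 genes had DA above 5-HT within both numbers; no call changed. Deviations from the group means over 10795 promoters correlated at -0.0579 for number 1 and 0.0125 for number 2. For DA 3 and 5-HT 1, which share no number, the value was 0.0701. With 2 5-HT libraries, the correlations of a DA library with them are equal and opposite. The check therefore cannot decide whether the numbers pair libraries.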

Other observations

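The limits lie in the libraries. Of the peaks of DA 1, 91.7% were also called in DA 2, while 69.9% of those of DA 2 were also called in DA 3. Of the peaks of 5-HT 2, 82.3% were also called in 5-HT 1. A region at 0 in a library was not called there, which does not show closed chromatin. The smallest p that 3 against 2 libraries allow is 0.1, and the score has no stated scale. The assignment of distal regions to genes rests on position alone.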
